A study of Mus musculus with 7 samples.

Results

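The genes examined here encode protein parts of the spliceosome's small nuclear ribonucleoproteins (snRNPs) and the closely related LSm proteins in the mouse prefrontal cortex (PFC). Proteins of snRNPs whose genes have other symbols, such as those starting with Snrnp or Prpf, are not members. Members were taken by name, as every protein-coding gene whose symbol starts with Snrp, with Lsm and a digit, or with Sf3a or Sf3b and a digit. This gave 34 genes of the 55416 in the deposited table, and all 34 had enough counts to be tested. RNA-seq was run on PFC tissue of female C57BL/6 mice in 3 Ctr, 2 Ref and 2 Alt libraries. Ctr mice received an empty recombinant AAV, Ref mice an AAV carrying the human lncRNA PAXIP1-AS1 with the reference C allele, and Alt mice the same lncRNA with the alternative G allele. Every vector, the empty one included, carried EGFP, and inserts and reporter were driven by the human synapsin promoter, which is active in neurons, whereas the RNA came from whole tissue. Mouse age and the time from injection to RNA collection are not given in the sources used here. Whether replicates were separate mice is not stated either, so p-values measure only the spread between these libraries.

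Pre-mRNA splicing is carried out by snRNPs, particles made of a small nuclear RNA and proteins. The U1, U2, U4 and U5 particles each hold a ring of Sm proteins, whereas U6 holds a ring of LSm proteins, and a second LSm ring in the cytoplasm promotes removal of the mRNA cap. U1 proteins help to recognise the 5′ splice site, and the SF3a and SF3b complexes join U2 at the branch point. These genes are used in every cell, with Snrpn, the neuronal paralog of Snrpb, as the member best known for expression in the brain.

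Library totals ran from 16655697 to 20750857 counts, with the lowest in Alt replicate 1. Differences were estimated with edgeR's quasi-likelihood test over 17254 genes, and are given as log2 differences with their standard errors (SE). FDR values were adjusted over all genes tested. Levels are CPM, read counts scaled to a common library size with TMM factors, which compare libraries for 1 gene, and FPKM where genes are compared with each other. Alt replicate 1 stood apart from the other libraries. Over the 34 members its median log2 difference from the mean of Ctr was -0.79, against -0.31 in Alt replicate 2, 0.00 and -0.18 in Ref, and -0.04 to 0.04 in Ctr. The SD of these medians within groups was 0.185. Over all genes tested the same medians lay between -0.04 and 0.04 in every library.

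Members were lower in Alt than in Ctr more often than higher. At an unadjusted p of 0.05, 13 of 34 members were lower and 0 higher in Alt, whereas 10.3% of all genes tested were lower and 9.45% were higher. The estimate was negative in 29 of 34 members, and the median difference was -0.57 against -0.03 over all genes tested. None of the 34 passed an FDR of 0.05, and the smallest FDR among them was 0.12. Across all genes edgeR called 0% at this FDR. DESeq2 on the same genes placed 4 members under an FDR of 0.05, Snrpc, Snrpd1, Snrpd2 and Sf3b5, all of them lower, where 2.6% of all genes were called lower, and edgeR without the low-count filter placed 6, these 4 with Sf3b4 and Sf3b6, where 2.86% were. In 19 members both Alt libraries lay below every Ctr library, against 18.1% of all genes, and in 15 they also lay below both Ref libraries, against 13.1%. In 3 members, Lsm11, Lsm12 and Sf3b3, both Alt libraries lay above every Ctr library, against 16.8% of all genes. In bulk tissue, fewer cells of a type and less RNA per cell cannot be told apart.

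**Figure D1:**
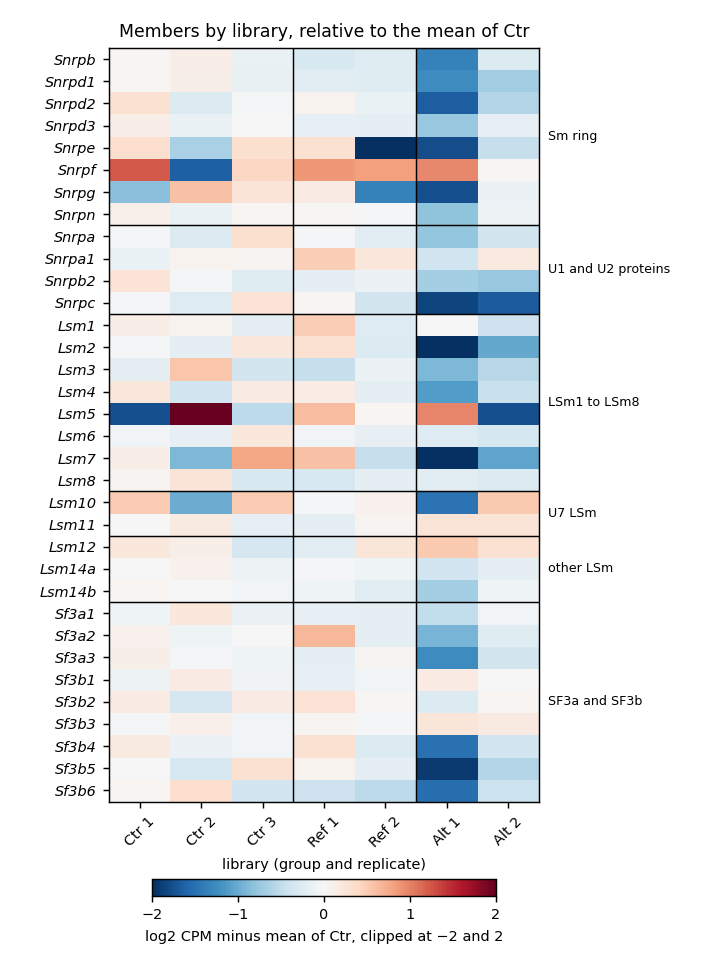
Difference in log2 CPM of each of the 34 members (rows, grouped by role) from its mean over the Ctr libraries, in each of the 7 libraries (columns), with colours clipped at -2 and 2. Alt replicate 1 is the bluest column, with a median of -0.79, and Alt replicate 2 is paler, with a median of -0.31.

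The 2 Alt libraries differed in size of effect. Alt replicate 1 lay below Alt replicate 2 in 24 of 34 members, against 51.9% of all genes, and was the lowest of the 7 libraries in 22 members, against 31.7% of all genes. Alt replicate 2 by itself lay below every Ctr library in 20 members, against 26.8% of all genes. Fits that leave out 1 Alt library hold a single Alt library, which is assumed to vary as the Ctr and Ref libraries do, since they alone set the spread there, so a p from such a fit does not measure the spread within Alt. When Alt replicate 1 was left out, 28 of 34 estimates were negative, the median difference was -0.37, and 4 members, Snrpc, Snrpb2, Snrpd1 and Sf3b5, were lower at an unadjusted p of 0.05, where 4.46% of all genes were. Each of the 13 members named lower in the full fit kept a negative estimate. When Alt replicate 2 was left out instead, so that Alt was the library that stood apart, 20 members were lower, where 18.9% of all genes were, and 14 passed an FDR of 0.05, where 10.8% of all genes did so in that direction.

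The 4 members that encode proteins specific to U1 or U2 include Snrpc, the member with the smallest p. Of these 4 genes 3 were lower in Alt than in Ctr, where 10.3% of all genes were, and 25.8% of protein-coding genes in the shortest quartile of coding length, in which all 4 lie, with a median difference of -0.66, and without Alt replicate 1 Snrpc and Snrpb2 were. Snrpc encodes protein C of U1, which stabilises the pairing of U1 with the 5′ splice site, and is listed at chr17:28057124-28070942 on the plus strand. Snrpc stood at 9.73, 8.32 and 12.2 CPM in Ctr, 10.3 and 7.7 in Ref, and 2.73 and 3.07 in Alt, from 42 and 55 counts. Both Alt libraries lay well below the other 5, which overlapped each other. The difference from Ctr was -1.79 ± 0.31 (SE), a level of 0.289 times that of Ctr, with an unadjusted p of 0.000104 and an FDR of 0.12. With Alt replicate 2 alone the difference was -1.71, with an unadjusted p of 0.000481 that rests on the spread of Ctr and Ref. Snrpc shares 22.7% of its 50-base stretches with other annotated genes, chiefly processed pseudogenes, so its counts are uncertain to that extent.

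Snrpb2, which encodes protein B″ of U2, which binds the U2 RNA, also had Alt libraries close to each other. Its CPM was 20, 16 and 13.8 in Ctr, 14.5 and 15.2 in Ref, and 10.2 and 9.65 in Alt, a difference of -0.74 ± 0.24 (SE) from Ctr at an unadjusted p of 0.00887. The groups Alt and Ctr did not overlap, and neither did Alt and Ref. With the correction for coding length described further on, the difference of Snrpb2 was -0.37, with an unadjusted p of 0.158. Snrpa encodes protein A of U1, which binds an RNA stem-loop directly. Its CPM was 25.7, 21.8 and 33.2 in Ctr, 25.7 and 22.7 in Ref, and 15.5 and 20.4 in Alt, with a difference of -0.58 ± 0.23 (SE) and an unadjusted p of 0.0289. Without Alt replicate 1 the unadjusted p of Snrpa was 0.157. Snrpa1, which encodes protein A′ of U2, the partner of protein B″, differed by -0.07 ± 0.26 (SE). The ratio of Snrpc to Snrpa in FPKM was 0.167 to 0.173 in Ctr, 0.181 and 0.154 in Ref, and 0.0799 and 0.0683 in Alt, both below the other 5 libraries.

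Promoters are shown for 3 members that share a motif, Snrpc and Snrpb2, which were also lower without Alt replicate 1, and Sf3b3, which did not pass the test (0.21 ± 0.14 (SE), and -0.08 after the length correction described further on). The sequences are the 250 bases before the RefSeq gene start, written 5′ to 3′ along the gene. Capitals mark the ETS core CCGGAAG or its reverse complement CTTCCGG.
Snrpc promoter, GRCm38.p6 chr17:27839837-27840086, plus strand: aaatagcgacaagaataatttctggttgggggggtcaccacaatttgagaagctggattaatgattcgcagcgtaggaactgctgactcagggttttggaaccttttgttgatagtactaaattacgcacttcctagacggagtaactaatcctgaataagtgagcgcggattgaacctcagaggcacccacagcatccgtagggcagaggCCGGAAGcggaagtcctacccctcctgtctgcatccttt
Snrpb2 promoter, GRCm38.p6 chr2:143062819-143063068, plus strand: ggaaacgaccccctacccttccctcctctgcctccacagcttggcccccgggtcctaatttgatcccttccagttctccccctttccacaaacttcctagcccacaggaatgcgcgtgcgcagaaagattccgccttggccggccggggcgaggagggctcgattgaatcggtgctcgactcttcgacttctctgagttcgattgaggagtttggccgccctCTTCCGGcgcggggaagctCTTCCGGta
Sf3b3 promoter, GRCm38.p6 chr8:110846804-110847053, minus strand: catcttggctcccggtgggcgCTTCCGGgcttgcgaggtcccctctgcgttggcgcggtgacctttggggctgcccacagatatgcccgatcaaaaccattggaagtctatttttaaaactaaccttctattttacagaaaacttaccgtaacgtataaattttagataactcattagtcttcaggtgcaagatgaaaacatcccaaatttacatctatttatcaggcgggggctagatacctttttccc

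The motif starts 39 bases before the gene start in Snrpc, 28 and 9 bases before it in Snrpb2, and 229 bases before it in Sf3b3. RefSeq windows from 250 bases before to 50 bases after the start were matched by symbol for 27 of the 34 members. On either strand the ETS core stood in 11 of these 27 windows, or 40.7%, against 9.93% of the windows of 27025 genes. It was present in 4 of 8 members that were lower in Alt and in 7 of 19 others. The GC box GGGCGG stood in 66.7% of member windows against 38.2% of all, CCAAT in 40.7% against 41.1%, and TATAAA in 11.1% against 15.7%. The letters of these 4 motifs do not contain one another, and a match is a description of the sequence only.

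The Sm ring is shared by U1, U2, U4 and U5 and is built around the snRNA from 7 proteins. Of its 8 genes, which include the 2 paralogs Snrpb and Snrpn, 3 were lower in Alt than in Ctr, 7 had a negative estimate, and the median was -0.78. Over all genes 10.3% were lower, and 25.8% in the shortest quartile of coding length, where all 8 lie, so that 3 of 8 is not far from the share of genes of like length. With Alt replicate 1 left out Snrpd1 was the 1 gene of the ring that was lower, and the median was -0.40. Snrpd1 (SmD1) had the smallest unadjusted p of the ring, 0.00225, and a difference of -0.95 ± 0.25 (SE). It stood at 17.7, 19 and 15.7 CPM in Ctr, 15 and 14.6 in Ref, and 7.22 and 10.8 in Alt. The 2 Alt libraries were the lowest, and the Ref libraries lay just below the lowest Ctr library. Snrpd2 (SmD2), listed at chr7:18883647-18887467 on the plus strand, stood at 21.7, 14.5 and 17.2 CPM in Ctr, 18.4 and 16 in Ref, and 5.53 and 11.7 in Alt. Alt replicate 1 was far below the other Alt library, and the difference was -1.04 ± 0.32 (SE) at an unadjusted p of 0.00665. With Alt replicate 2 alone it was -0.60, with an unadjusted p of 0.0559. Snrpd3 (SmD3) differed by -0.44 ± 0.20 (SE) at an unadjusted p of 0.0528. Snrpe and Snrpg, whose proteins sit with SmF in the ring, had estimates of -1.06 and -0.85 with SE of 0.69 and 0.65. The Ref libraries of both genes spread as widely as the Alt libraries. Without Alt replicate 1 the differences of Snrpd3, Snrpe and Snrpg were -0.18, -0.54 and -0.23. Snrpf gave 0 to 13 counts per library, so no difference was detectable at this depth.

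Snrpb and its neuronal paralog Snrpn encode the SmB/B′ and SmN proteins, which take the same place in the ring. Snrpn was the most abundant member per length, at 151 FPKM in Ctr, 148 in Ref and 103 in Alt (group means), against a median of 5.34 over the members. Its CPM was 336, 284 and 324 in Ctr, 321 and 308 in Ref, and 179 and 292 in Alt. Alt replicate 1 lay far below the rest, whereas Alt replicate 2 lay within the range of Ctr. The difference was -0.42 ± 0.20 (SE), with an unadjusted p of 0.0554, and it was -0.11 without Alt replicate 1. Snrpb stood at 28.9, 31.1 and 25.8 CPM in Ctr, 23.1 and 24.2 in Ref, and 11.1 and 23.7 in Alt, a difference of -0.71 ± 0.28 (SE) at an unadjusted p of 0.0258. As in Snrpn, Alt replicate 2 was close to Ref, and without Alt replicate 1 the difference of Snrpb was -0.27. The ratio of Snrpn to Snrpb in FPKM was 7.84 to 10.8 in Ctr, 11.9 and 10.9 in Ref, and 13.8 and 10.6 in Alt, so that Alt and Ref overlapped. Snrpn shares its locus with Snurf and Gm38393, and the table lists Snurf at 0 counts in every library, so reads of that bicistronic transcript cannot be told apart from Snrpn here.

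**Figure D2:**
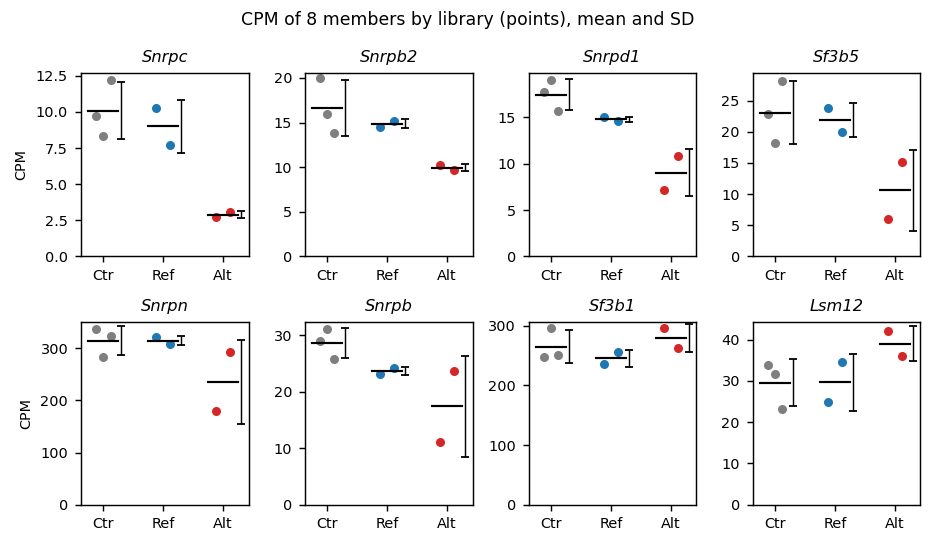
CPM of 8 members in each library, with points for libraries, a horizontal line for the group mean and a bar for the SD, on axes that start at 0 (3 Ctr, 2 Ref and 2 Alt libraries). Snrpc and Snrpb2 show Alt libraries that lie close together, and Snrpn and Snrpb show a single low Alt library.

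LSm2 to LSm7 form a ring with LSm8 on U6 snRNA in the nucleus, or with LSm1 on mRNAs bound for decapping in the cytoplasm. All 8 estimates of these genes were negative, 3 of them at an unadjusted p of 0.05, with a median of -0.78. These 8 genes too lie in the shortest quartile of coding length, where 25.8% of all genes were lower, against 10.3% over all lengths. Lsm2 stood at 3.28, 2.95 and 3.99 CPM in Ctr, 4.21 and 2.79 in Ref, and 0.39 and 1.62 in Alt. The Alt values rest on 6 and 29 counts, both below every other library, and the difference was -1.74 ± 0.61 (SE) at an unadjusted p of 0.015. Lsm7 stood at 2.93, 1.38 and 4.6 CPM in Ctr, 4.06 and 1.91 in Ref, and 0.325 and 1.23 in Alt, a difference of -1.91 ± 0.75 (SE) at an unadjusted p of 0.0254. The higher Alt library of Lsm7 was close to the lowest Ctr library, and the gene shares 62.8% of its 50-base stretches with other genes, chiefly processed pseudogenes. Lsm4 stood at 11, 7.19 and 10.7 CPM in Ctr, 10.5 and 8.33 in Ref, and 4.29 and 6.92 in Alt, with a difference of -0.78 ± 0.32 (SE) and an unadjusted p of 0.032. Leaving out Alt replicate 1, the differences were -1.07 for Lsm2, -1.27 for Lsm7 and -0.48 for Lsm4, with unadjusted p of 0.072, 0.11 and 0.191.

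The 2 proteins that set where the ring acts did not pass the test. Lsm8, the nuclear member, had a difference of -0.27 ± 0.27 (SE), and Lsm1, the cytoplasmic member, had one of -0.19 ± 0.33 (SE). Their FPKM ratio, Lsm1 to Lsm8, was 0.817 to 1.01 in Ctr, 1.66 and 0.885 in Ref, and 1.1 and 0.846 in Alt, so the groups overlapped. Lsm3 and Lsm6 had estimates of -0.79 and -0.32, with unadjusted p of 0.0887 and 0.147. Lsm5 was at 0 counts in Ctr replicate 1 and in Alt replicate 2 and at 33 counts in Ctr replicate 2, which is too few and too uneven for a difference to be seen.

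None of the 5 remaining LSm genes passed the test in either direction. Exceptions in other fits included Lsm12 and Lsm14a with the length correction, and Lsm11 and Lsm12 with the coding length correction. Without Alt replicate 2 the difference of Lsm14b was -0.68. Lsm10 and Lsm11 replace SmD1 and SmD2 in the U7 particle, which trims histone mRNAs. Lsm11 stood at 26.3, 29.8 and 23.4 CPM in Ctr, 23.3 and 27.3 in Ref, and 31.7 and 31.3 in Alt. Both Alt libraries lay above the other 5, by 0.25 ± 0.19 (SE) against Ctr, with an unadjusted p of 0.211. Lsm10 stood at 3.13, 1.03 and 3.11 CPM in Ctr, 2.13 and 2.33 in Ref, and 0.715 and 3.18 in Alt, which held both the lowest and the highest library. Lsm12, an RNA-binding protein outside the rings, stood at 33.8, 31.8 and 23.2 CPM in Ctr, 24.8 and 34.5 in Ref, and 42.1 and 36 in Alt. Its difference of 0.40 ± 0.22 (SE) was the largest positive one among the members, with an unadjusted p of 0.0926.

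Lsm14a and Lsm14b encode proteins of cytoplasmic P-bodies, where untranslated mRNA collects. Lsm14a stood at 73.5, 77.4 and 67.8 CPM in Ctr, 71 and 69 in Ref, and 55.9 and 64.4 in Alt, and Lsm14b at 51.7, 50.6 and 48.5 in Ctr, 47.5 and 43.1 in Ref, and 31.3 and 47.3 in Alt. Both Alt libraries lay below every Ctr library in each gene. In Lsm14b Alt replicate 1 lay far below, by -0.68 on the log2 scale from the mean of Ctr, and Alt replicate 2 just below, by -0.09, and without Alt replicate 1 the estimates were -0.18 for Lsm14a and -0.09 for Lsm14b. The differences were -0.28 ± 0.15 and -0.35 ± 0.19 (SE), with unadjusted p of 0.0931 and 0.0917.

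SF3a and SF3b are the subcomplexes that anchor U2 at the branch point. Of the 9 genes taken by name from these complexes 4 were lower, Sf3a3, Sf3b4, Sf3b5 and Sf3b6, where 10.3% of all genes were. The median was -0.56. By coding length Sf3b5 and Sf3b6 lie in the shortest quartile, where 25.8% of all genes were lower. Sf3b4 lies in quartile 2, with 12.7% lower, and Sf3a3 in quartile 3, with 5.66% lower. Among these 9, Sf3b5 alone was lower without Alt replicate 1, at an unadjusted p just under 0.05, and the median was -0.25. Sf3b5, which encodes the smallest SF3b subunit and is listed at chr10:12881087-12884927 on the plus strand, stood at 22.9, 18.2 and 28.2 CPM in Ctr, 23.9 and 20 in Ref, and 5.98 and 15.2 in Alt. Both Alt libraries were below the other 5, by -1.12 ± 0.35 (SE) against Ctr, with an unadjusted p of 0.00719. Without Alt replicate 1 the difference was -0.61. Sf3b6, the subunit that lies at the branch point adenosine, stood at 20.1, 24.7 and 15 CPM in Ctr, 14.5 and 13.4 in Ref, and 6.76 and 14.4 in Alt. Alt replicate 2 of Sf3b6 fell between the Ref libraries, and the difference from Ctr was -0.91 ± 0.32 (SE) at an unadjusted p of 0.0161, or -0.46 without Alt replicate 1, with an unadjusted p of 0.134. Sf3a3, a subunit of SF3a, stood at 20.4, 18.5 and 17.7 CPM in Ctr, 16.6 and 19.6 in Ref, and 7.8 and 14.6 in Alt, with a difference of -0.75 ± 0.27 (SE) and an unadjusted p of 0.0172. Without Alt replicate 1 the difference of Sf3a3 was -0.37, with an unadjusted p of 0.165. Sf3b4, an RNA-binding subunit of SF3b, stood at 27.7, 22.6 and 23.5 CPM in Ctr, 30.3 and 20.3 in Ref, and 8.59 and 18.7 in Alt. Both Alt libraries of Sf3b4 lay below the other 5, the second of them by little. It differed from Ctr by -0.85 ± 0.31 (SE) at an unadjusted p of 0.0185, by -0.40 without Alt replicate 1, and shares 51.2% of its 50-base stretches with other genes, chiefly a processed pseudogene.

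The 4 largest subunits did not pass the test. Sf3b1, the scaffold of SF3b that clamps the branch helix, stood at 247, 296 and 251 CPM in Ctr, 235 and 255 in Ref, and 296 and 262 in Alt. The groups overlapped, and the difference was 0.08 ± 0.15 (SE). Sf3b3 and Sf3b2 differed by 0.21 ± 0.14 and -0.13 ± 0.19 (SE). Sf3a1 differed by -0.27 ± 0.18 (SE), and Sf3a2 by -0.56 ± 0.31 (SE) with an unadjusted p of 0.0984. Without Alt replicate 1 the differences of Sf3a1 and Sf3a2 were -0.07 and -0.25. Within 1 complex the FPKM ratio of Sf3b1 to Sf3b5 was 3 to 5.51 in Ctr, 3.32 and 4.31 in Ref, and 16.7 and 5.82 in Alt.

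**Figure D3:**
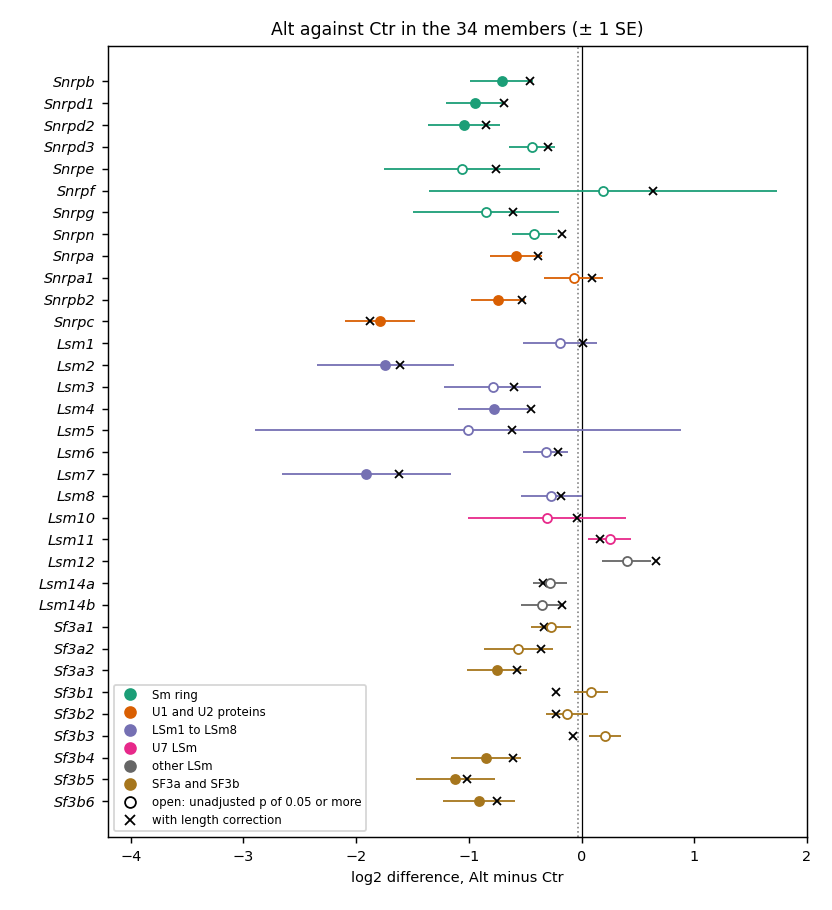
Log2 difference of Alt from Ctr for each member (points, bars of 1 SE), coloured by role and filled where the unadjusted p was under 0.05, with crosses for the estimate after correction for gene length and a dotted line at the median of all genes tested (-0.03). All 13 filled points lie below 0, from Snrpa at -0.58 to Lsm7 at -1.91.

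The difference varied with coding length. Of the 34 members 24 lie in the shortest quartile of coding length among protein-coding genes (99 to 897 bases, from the GENCODE M21 annotation). There 11 of 24 were lower with a median of -0.76, where 25.8% of all genes in that quartile were lower, with a median of -0.36. In the longest quartile none of the 4 members, Sf3a1, Sf3b1, Sf3b2 and Sf3b3, was lower at an unadjusted p of 0.05, with a median of -0.03 against 0.24 and 1.33% of all genes. In the quartiles between, 1 of 4 and 1 of 2 members were lower, where 12.7% and 5.66% of all genes were. These quartile counts were not taken without Alt replicate 1, where the median over the 34 members was -0.37. Across the 34 members, which share the same libraries, the Spearman correlation between the difference and coding length was 0.453 and the Pearson correlation was 0.436, against a Spearman correlation of 0.429 across 14454 protein-coding genes.

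After a correction for the gene length given in the table, 11 members were lower and 1, Lsm12, was higher at an unadjusted p of 0.05, where 9.06% of all genes were lower and 7.3% higher. The median difference became -0.37. With Alt replicate 1 also left out the median was -0.29, and Sf3b5 stood at -0.58. Of the 13 members lower without the correction 10 were lower with it, and Lsm14a, at -0.34, was added. Snrpc stood at -1.88 with an unadjusted p of 3.7e-05, Sf3b5 at -1.02 and Snrpd1 at -0.69. In contrast, Snrpa, Snrpb and Lsm4 had unadjusted p of 0.0808, 0.0738 and 0.134. The table lists Snrpc at 6521 bases, against 882 for its transcript in GENCODE M21, so this correction handles Snrpc as a long gene. Sf3b5 is listed at 3841 bases, of which 258 are coding. The estimate of Sf3b1 turned negative, to -0.23. A correction for coding length, chosen after seeing the data, was fitted to 14430 protein-coding genes. There 8 of 33 members passed, of which Lsm11 and Lsm12 were higher, with a median of -0.28. Of these protein-coding genes 7.26% were lower and 10.7% higher, and Snrpf was dropped by the filter. Among the lower members were Sf3b4, Sf3a3, Sf3b5 and Snrpd2, at -0.75, -0.71, -0.55 and -0.54. Snrpb2 stood at -0.37, with an unadjusted p of 0.158. Protein-coding genes fitted without that correction gave 13 of 33 members and a median of -0.56, and the share of all genes passing in that fit was not counted. The part of transcript length or RNA quality in these differences was not tested beyond these fits.

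**Figure D4:**
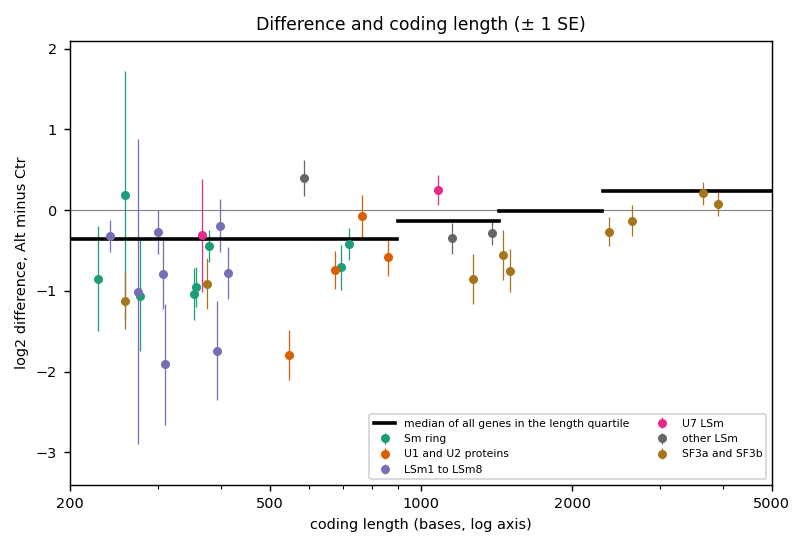
Log2 difference of Alt from Ctr (points, bars of 1 SE) against coding length on a log axis for the 34 members, coloured by role, with black lines for the median of all protein-coding genes in each length quartile. Most short members lie below their quartile's line of -0.36, and the 4 longest members lie near 0 or below the line of 0.24.

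The comparison of Alt with Ref asks whether the allele of the lncRNA matters, and it shares the Alt libraries with the comparison above. Oligodendrocyte markers, given further on, also differed between Alt and Ref, and the part of cell makeup was not tested. Here 10 members were lower and 0 higher in Alt at an unadjusted p of 0.05, where 8.83% of all genes were lower and 6.71% higher. The median was -0.41, and the smallest FDR in edgeR was 0.229. DESeq2 placed 1 member, Snrpc, under an FDR of 0.05, where 1.08% of all genes were called lower, and edgeR without the low-count filter placed 4, Snrpc, Snrpd2, Sf3b4 and Sf3b5, where 2.01% were. Snrpc differed by -1.63 ± 0.33 (SE) with an unadjusted p of 0.000379, and Snrpd1 by -0.72 ± 0.26 (SE) with an unadjusted p of 0.0188. Lsm2 and Lsm7 differed by -1.78 and -1.92, with SE of 0.65 and 0.79. Sf3a2, which forms SF3a with Sf3a1 and Sf3a3, differed by -0.85 ± 0.34 (SE) with an unadjusted p of 0.0263, with Ref replicate 1 at 18 CPM above every other library. After the correction for gene length 5 members passed, Snrpc, Snrpd2, Sf3b5 and Lsm2 lower and Lsm12 higher, with a median of -0.12, where 5.6% of all genes were lower and 7.42% higher. Leaving out Alt replicate 1 left Snrpc as the 1 member that passed, where 4.4% of all genes were lower, and leaving out Ref replicate 1 left Snrpc and Sf3a3, where 2.88% were. The group left with 1 library is again assumed to vary like the other groups, which set the spread.

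No member passed the test between Ref and Ctr. The comparison asks what the lncRNA with the reference allele does against the empty vector, and 0 of 34 members passed an unadjusted p of 0.05 in edgeR, where 3.14% of all genes did in either direction. DESeq2 gave 0 as well, where it called 3.45% of all genes. Differences lay between -0.56 and 0.37 with a median of -0.09 in the 32 members other than Lsm5 and Snrpf, which each had a library at 0 counts, and the smallest unadjusted p was 0.134, for Sf3b6 at -0.51 ± 0.32 (SE). Snrpc differed by -0.17 ± 0.29 (SE) and Snrpb2 by -0.16 ± 0.23 (SE). The groups were also coded as Ctr 0, Ref 1 and Alt 2, in the order the study used. There 12 members passed, all of them lower toward Alt, where 7.89% of all genes were lower and 8.85% were higher. With the correction for coding length 4 passed, 1 of them higher, and without Ctr replicate 1 the number was 6.

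**Figure D5:**
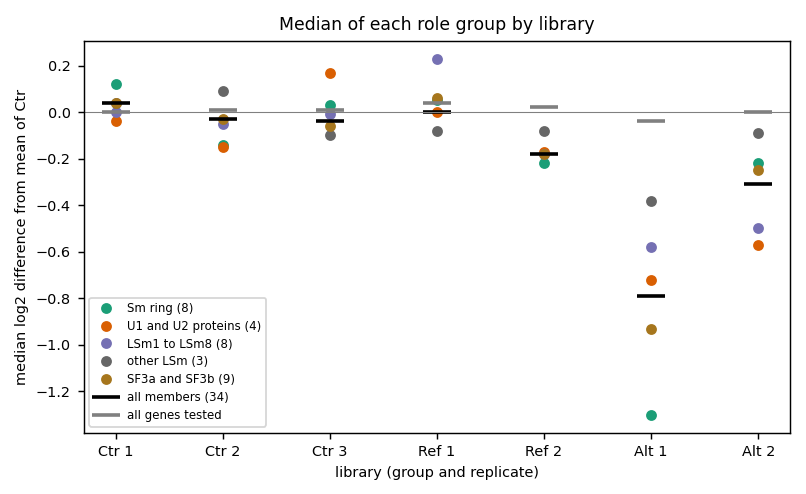
Median log2 difference from the mean of Ctr in each library, for the role groups with at least 3 genes (coloured points), all 34 members (black bars) and all genes tested (grey bars). The Sm ring stands lowest in Alt replicate 1, at -1.30, and the U1 and U2 proteins stand lowest in Alt replicate 2, at -0.57.

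The 2 Alt libraries can be set side by side for each role group. In replicates 1 and 2 of Alt the median of the Sm ring was -1.30 and -0.22, and that of SF3a and SF3b was -0.93 and -0.25. The U1 and U2 proteins, at -0.72 and -0.57, and the ring of LSm1 to LSm8, at -0.58 and -0.50, had medians closer to each other. Within that ring, the 3 members that were lower differed more between the 2 libraries, with Lsm2 at -2.82 and -1.02, Lsm7 at -2.69 and -1.06 and Lsm4 at -1.12 and -0.45, and none of them was lower without Alt replicate 1. In Ref the medians of these 4 groups lay between -0.22 and 0.23.

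Genes that work with the members, or belong to snRNPs under other symbols, were counted in the same way. Of 36 spliceosome partners 6 were lower and 2 higher in Alt than in Ctr, with a median of -0.31, where 10.3% of all genes were lower and 9.45% higher. Zcrb1, a protein of the minor spliceosome, stood at 26, 22.2 and 26.3 CPM in Ctr and 12.6 and 16.5 in Alt, a difference of -0.77 ± 0.21 (SE) at an unadjusted p of 0.00329. U2af2 and U2af1, which recognise the 3′ splice site ahead of U2, differed by -0.75 and -0.74. Leaving out Alt replicate 1 gave -0.59 for Zcrb1, -0.42 for U2af2 and -0.92 for U2af1, and a median of the list of -0.19. Snrnp200, the helicase that unwinds U4 from U6, stood higher, by 0.47 ± 0.15 (SE) at an unadjusted p of 0.00849, and by 0.41 without Alt replicate 1. Among 15 genes of snRNP assembly 3 were lower and 1 higher, with a median of -0.44. Smn1, the survival motor neuron protein that loads Sm rings onto snRNA, stood at 9.23, 11.6 and 8.69 CPM in Ctr, 9.14 and 7.45 in Ref, and 4.81 and 3.74 in Alt. Both Alt libraries of Smn1 lay below the other 5, by -1.20 ± 0.30 (SE) against Ctr, with an unadjusted p of 0.00159. Clns1a, a chaperone of Sm proteins, and Phax, an export adaptor of snRNA, differed by -0.74 and -0.66. With Alt replicate 1 left out the differences were -1.39 for Smn1, -0.61 for Clns1a and -0.33 for Phax, and the median of the list -0.10. Gemin5, the snRNA-binding partner of SMN, differed by 0.49 ± 0.20 (SE), and by 0.66 without Alt replicate 1.

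Of 10 decapping partners of the cytoplasmic LSm ring 0 were lower and 2 higher, where 10.3% of all genes were lower and 9.45% higher. Without Alt replicate 1 none of the 10 passed in either direction, where 4.46% of all genes were lower and 3.68% higher. Dcp2, the decapping enzyme, was at 79.7, 98 and 101 CPM in Ctr and 168 and 119 in Alt, a difference of 0.63 ± 0.18 (SE) at an unadjusted p of 0.00445. Xrn1, the exonuclease that acts after it, differed by 0.62 ± 0.20 (SE). With Alt replicate 1 left out these differences were 0.36 and 0.30. None of 7 genes of U7 and histone mRNA processing passed in either direction. Cytosolic ribosomal protein genes and proteasome subunit genes are set beside the members as other families of mostly short genes. Of 78 cytosolic ribosomal protein genes 54 were lower, with a median of -0.67, and of 39 proteasome subunit genes 21 were lower, with a median of -0.53, beside 10.3% of all genes and 25.8% of those in the shortest quartile of coding length. With Alt replicate 1 left out these counts were 13 and 7, beside 4.46% of all genes, and the medians -0.34 and -0.28, beside -0.37 for the 34 members. Whether the members differ from these families was not tested.

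Every listed cell type marker passed the filter on low counts. Of 10 oligodendrocyte markers 8 were higher in Ref than in Ctr at an unadjusted p of 0.05, where 2.19% of all genes were, with summed CPM of 2424.5 to 3431.1 in Ctr, 4101.2 and 5101.3 in Ref, and 2374.3 and 2904.1 in Alt. Between Alt and Ref 8 of these 10 markers were lower in Alt, where 8.83% of all genes were, with a median difference of -0.85. Mbp had an FDR of 0.0481 there. Between Alt and Ctr 2 of the markers were lower and 0 higher, with a median of -0.13. Of 8 neuron markers 1 was lower and 1 higher in Alt than in Ctr, with summed CPM of 5789.1 to 6455.6 in Ctr and 6259.0 and 6458.8 in Alt. Astrocyte markers summed to 5424.2 to 7054.7 CPM in Ctr and to 8169.6 and 11422.4 in Alt, with 1 of 8 higher and 1 lower and a median difference of 0.11. Slc1a2, the glutamate transporter, made up most of this sum, and the other 7 markers summed to 1940.0 to 2227.8 CPM in Ctr and to 1894.6 and 2205.3 in Alt. Microglia markers had 2 of 8 lower and 1 higher, and endothelial markers 2 of 8 higher, with a median of 0.30, where 10.3% of all genes were lower and 9.45% higher. Without Alt replicate 1 endothelial markers had 4 of 8 higher, where 3.68% of all genes were, with a median of 0.49, and the medians of oligodendrocyte and astrocyte markers were -0.31 and 0.21. The part of cell makeup in the members' differences was not tested.

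Some of the members are hard to count apart from their copies. Of the 34, 14 share at least 10% of their 50-base stretches with other genes in the GENCODE M21 transcripts, and 9 share none. Of the 14, 6 were lower in Alt than in Ctr, with a median of -0.85. Of the 20 others, 7 were lower, with a median of -0.31, where 10.3% of all genes were lower. The 20 members with over 100 counts in every library had 7 lower and a median of -0.33. Without Alt replicate 1, where 4.46% of all genes were lower, each of these 3 sets had 2 lower, and the medians were -0.53, -0.22 and -0.18. In addition, 10 members overlap a gene on the opposite strand, and the strand setting of the counting is not stated.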

How the data were processed

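Members and gene lists were chosen with earlier results of these data known. The authors deposited 1 table with read counts per gene, not normalized, and the TPM and FPKM values and gene lengths that go with them. The submitters' processing notes list STAR and featureCounts without versions, and the human build hg19, although the table holds mouse genes. The mouse build is not given in the sources used here, and coordinates are as the table lists them. Libraries were grouped by their labels (3 Ctr, 2 Ref, 2 Alt).

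Differences were fitted to the counts by edgeR 4.0.16 in R 4.3.3 (TMM, filterByExpr, glmQLFit, glmQLFTest on group means, all 7 libraries), which kept 17254 genes, and with DESeq2 1.42.0 as an alternative. FDR values are Benjamini-Hochberg values over all genes tested, and each SE is the estimate divided by the square root of F. Log2 CPM used a prior count of 2. TPM was not used further. For the length and GC corrections, offsets took out each library's loess trend (span 0.3). Coding length, GC content and shared 50-base stretches came from GENCODE M21 (GRCm38), and promoters from RefSeq (GRCm38.p6). Depths of 16655697 to 20750857 counts per library set the precision, and a gene at 3 counts or fewer in a library was taken as at the limit of detection. Same-numbered libraries did not deviate together (correlations of deviations from the group means from -0.0984 to 0.0702), so replicate numbers were not used as pairs. With 1 library of Alt or Ref left out, the other library of that group adds nothing to the estimated spread, which comes from the other groups. The scripts were tested on simulated data. Values in every library are given for the 3 members of each role group with the smallest p for Alt against Ctr, and for Snrpb, Snrpn and Sf3b1. The same held for any member past an FDR of 0.05 in the uncorrected edgeR fit of all 7 libraries with the low-count filter, which none was. Sf3b4, which passed without that filter, was added. Partner genes are those with the smallest p, up to 4 a list. Other members, and those named in counts, were added after their values were seen. The lncRNA carried by the vector was not analysed here.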

Additional observations from a re-analysis of the deposited data

How the results depend on the processing

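The median difference of the 34 members between Alt and Ctr was negative in each fit run, but the number that passed an unadjusted p of 0.05 depended on the fit. Against 13 members and a median of -0.57, the correction for coding length, fitted to protein-coding genes alone, gave 8 and -0.28 (13 and -0.56 for these genes without the correction), the length correction gave a median of -0.37, and the fit with a replicate block gave 8 members. Leaving out 1 library gave 4 to 20 members and medians from -0.37 to -0.81, both ends set by the Alt libraries, in fits where the lone Alt library is assumed to vary like the other groups, and with the length correction leaving out Alt replicate 1 gave 4 members and -0.29. Against Ref, where 10 members had passed with a median of -0.41, the length correction gave 5 and -0.12, coding length a median of -0.08, the 2 groups fitted alone 6, the replicate block 5, and the block with the length correction 5 and -0.16. Leaving out 1 library gave 1 to 17 members and medians from -0.20 to -0.70, with 2 members without Ref replicate 1, and with the length correction leaving out Alt replicate 1 gave 1 member and -0.11. Between Ref and Ctr the count of 0 became 1 with the 2 groups fitted alone, with the replicate block and length correction together, and without Alt replicate 1, Alt replicate 2 or Ref replicate 1. For the ordered score, 12 members became 4 under coding length, 7 under the replicate block, and 3 to 14 with 1 library left out, the lowest without Alt replicate 1, and 6 without Ctr replicate 1. The cause of these shifts was not tested. For most of these fits, the replicate block among them, the share of all genes passing was not counted. A shift in the member count there cannot be set beside that of all genes. Fits with coding length, or with length and a library left out, were chosen after seeing the data. The replicate numbers did not pair the libraries, so a call lost under the block is not read as a smaller difference.

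Of 673 values for the 34 members under these alternatives, 34 changed sign. Sf3b1, at 0.08, became -0.00 with the GC correction, -0.20 with coding length, -0.23 with the length correction, -0.18 and -0.28 with that correction and Alt replicate 1 or 2 left out, -0.30 with the block and length correction, and -0.01 without Alt replicate 1, against 0.17 without Alt replicate 2. Lsm10, at -0.31, became 0.13 with coding length, 0.53 and 0.39 without Alt replicate 1 with and without the length correction, and 0.09 with the block and length correction, against -1.76 without Alt replicate 2. Snrpn became 0.01 with the length correction and without Alt replicate 1. With coding length, Snrpd3 became 0.08, Lsm6 0.43, Lsm8 0.38, Lsm1 0.40, Snrpa1 0.22 and Sf3b3 -0.04. Sf3b3, at 0.21, also became -0.08 with the length correction, -0.19 with that correction and Alt replicate 2 left out, and -0.14 with the block and length correction. Lsm1 was 0.25 with the length correction and Alt replicate 2 left out, and Snrpa1 0.10 with the block and length correction. Snrpa1 became 0.09 with the length correction, 0.25 with it and Alt replicate 1 left out, and 0.20 without Alt replicate 1, and Lsm1 became 0.01 with the length correction. Leaving out 1 library gave ranges from -0.42 to 0.01 for Lsm1, from -0.41 to 0.20 for Snrpa1 and from -0.30 to 0.02 for Sf3b2, which became 0.06 with the GC correction. Snrpf and Lsm5, each with a library at 0 counts, gave fitted values that are no measure of size, -0.53 and -6.56 without Alt replicate 1, 0.67 and 0.01 without Alt replicate 2, -0.38 for Snrpf with the length correction and without Alt replicate 1, and 0.24 for Lsm5 with it and without Alt replicate 2. A further 49 values lost their side of the threshold of an unadjusted p of 0.05 and 28 gained it. With 2 libraries in Alt and in Ref, and 5 to 29 counts in the Alt libraries of Lsm2 and Lsm7, small differences in single members were not detectable at this depth.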
